A study of Mus musculus with 26 samples.

Results

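The osteocalcin genes *Bglap*, *Bglap2* and *Bglap3* and the zinc finger genes *Zfp932* and *Gm15446* were examined in mouse embryonic stem (ES) cells with and without ZFP57. They were taken by symbol and make up 5 of the 24409 genes in the deposited expression table, selected on their expression in WT and KO cells and on nearby ZFP57 peaks. Osteocalcin is a small protein that osteoblasts secrete into bone matrix; it carries gamma-carboxyglutamic acid (Gla) residues, which a vitamin K-dependent carboxylase adds, and these let it bind calcium. In the mouse it is encoded by a tight cluster, in which *Bglap* and *Bglap2* are the genes of bone and *Bglap3* (osteocalcin-related protein) is known for expression outside bone. *Zfp932* and its paralog *Gm15446* encode Kruppel-associated box (KRAB) zinc finger proteins, which bind endogenous retroviruses and recruit the co-repressor KAP1. ZFP57 belongs to the same protein family, recognizes the hexanucleotide TGCCGC when its CpG is methylated, and binds imprinting control regions as well as retroviral elements of the intracisternal A particle (IAP) class.

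The RNA-seq libraries came from male C57BL/6J ES cell lines derived from embryos and kept in 2i/LIF medium (the inhibitors PD0325901 and CHIR99021 with leukemia inhibitory factor), which holds cells in ground state pluripotency. There were 3 wild-type (WT) libraries and 2 libraries of ZFP57 KO cells, in which both zygotic copies of *Zfp57* carry a targeted disruption of the coding exons for the KRAB domain and the zinc fingers. Both groups were grown in this medium, and the labels name no other allele or agent. Expression was deposited as FPKM, fragment numbers scaled by transcript length and library size. Nothing in the labels ties each library to a separate embryo, so that p-values measure the spread between these samples, which may be in part technical. *Zfp57* itself measured 75.9, 72.3 and 70.6 FPKM in WT and 19.0 and 21.6 FPKM in KO cells, a log2 difference of -1.84 (SE 0.06, adjusted p = 2.3e-04 by limma), in the direction of the labels. That test was run on log2(FPKM + 0.1) for the 14612 genes averaging at least 0.1 FPKM, with p adjusted by Benjamini-Hochberg over all of them, and a gene is called when its adjusted p is under 0.05; 41.1% of these genes were called, 18.8% higher and 22.3% lower in KO.

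Markers of the cell type stood where the label places them. All 7 ES cell markers were above 1 FPKM, with a summed level of 641.5 to 660.8 FPKM in WT and 723.9 to 783.4 FPKM in KO libraries, and 4 of the 7 were called higher in KO. Of 6 osteoblast markers, *Runx2*, *Sp7*, *Ibsp*, *Dmp1* and *Col1a1* were under 0.1 FPKM on average, and the sum of 57.1 to 61.4 FPKM in WT and 60.5 to 64.2 FPKM in KO was nearly all *Alpl*, the alkaline phosphatase that ES cells also express. The 5 fibroblast markers summed to 0.25 to 0.27 FPKM in WT and 0.11 to 0.24 FPKM in KO, with 3 of them at 0 in every library. The 4 markers of primitive endoderm summed to 0.47 to 0.59 FPKM in WT and 0.37 to 0.41 FPKM in KO. The 3 trophoblast markers summed to 0.41 to 0.78 FPKM in WT and 2.34 to 2.54 FPKM in KO, with 1 of them called higher, and the 3 neural markers to 2.72 to 3.12 FPKM and 1.93 to 2.11 FPKM, with 1 called higher and 1 lower. The part of these shifts in the values of the genes described here was not tested. In such bulk libraries, fewer cells of a type and less RNA per cell cannot be told apart.

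The osteocalcin genes lie within 15851 bp on chromosome 3 (GRCm38, positions counted from 1), all on the minus strand. *Bglap3* spans 88368616 to 88372741, *Bglap2* spans 88377736 to 88378701 and *Bglap* spans 88383495 to 88384466. Gaps of 4994 and 4793 bp separate them. A single ZFP57 peak fell within 250 kb of this cluster. It covers 355 bp, chr3:88370123-88370477, inside *Bglap3*, and is in both deposited peak lists, that of the C57BL/6J lines and that named for the hybrid lines. All 743 intervals of the hybrid list are among the 1423 of the C57BL/6J list, 52.2% of them. No ZFP57 ChIP library of hybrid lines is among the samples, so that presence in both lists is not a second observation. The *Bglap3* peak lies 7259 bp from *Bglap2* and 13018 bp from *Bglap*. Of the 24263 genes of the table that could be placed, 395 (1.63%) had a peak overlapping their span and 1032 (4.25%) had one within 20 kb.

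The peak sits on a non-coding exon of *Bglap3*. In 2 of the 4 curated RefSeq models of the gene, an exon of 236 bases (88370128 to 88370363) lies whole within the peak, and another model has a shorter form of it, 109 bases that end at 88370236. The remaining model starts downstream of the peak, at 88369831, and does not contain this exon. All 4 models share the coding part, 88368756 to 88369536, which ends 587 bp from the peak. Only 28 genes of the table (0.115%) had a whole curated exon inside a peak, *Bglap3* among them. RefSeq places the starts of *Bglap3* at 88372741, 88371479 and 88369831, at 2441, 1179 and 469 bp from the centre of the peak.

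**Figure D1:**
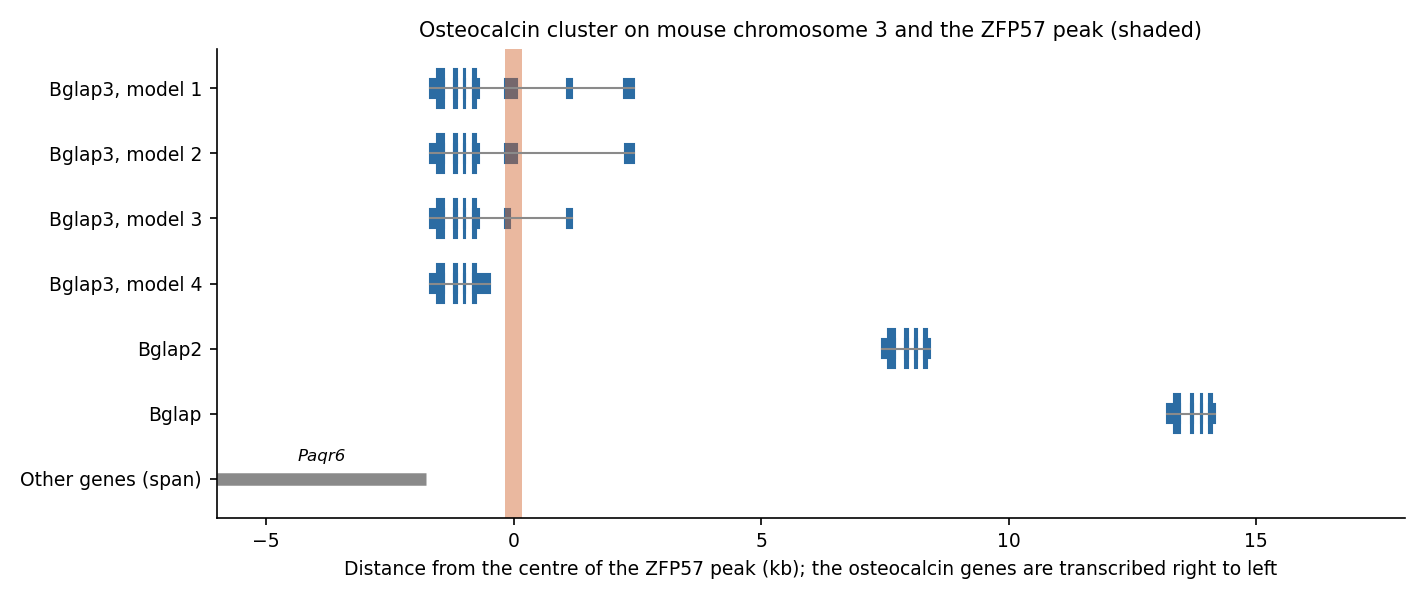
Curated RefSeq models of the osteocalcin genes by distance from the centre of the ZFP57 peak in kb; tall boxes are coding, low boxes non-coding exon parts, lines introns, and the shaded band is the peak. The band covers the 236-base exon of models 1 and 2 of *Bglap3* and misses model 4, *Bglap2* and *Bglap*, and *Paqr6* lies just beyond the cluster.

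The hexanucleotide occurs a single time in this peak. The 30 bases around it are shown because they carry the only copy of these letters within the interval; they are read on the minus strand, the strand of *Bglap3*, from chr3:88370231-88370260 (GRCm38.p6), with the hexanucleotide in capitals.
*Bglap3* peak: ttctggtgcaccTGCCGCatgcagagtcgt

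The outermost and innermost starts of *Bglap3* lie in sequence that is nearly duplicated. Over 390 aligned bases, 88369595 to 88369986 and 88372607 to 88372996, 357 (91.5%) were identical, with 2 gap bases. The 250 bases before each start are given, read on the minus strand from RefSeq on GRCm38.p6, at chr3:88372742-88372991 and chr3:88369832-88370081. The starts are not at matching places in the alignment, so that the first 95 bases of the inner window as printed lie outside it and the other 155 within it.
Before the outermost start: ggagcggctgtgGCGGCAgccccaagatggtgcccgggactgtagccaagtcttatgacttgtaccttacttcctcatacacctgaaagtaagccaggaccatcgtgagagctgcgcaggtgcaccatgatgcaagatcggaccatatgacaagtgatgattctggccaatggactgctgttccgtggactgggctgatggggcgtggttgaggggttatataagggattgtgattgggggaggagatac
Before the innermost start: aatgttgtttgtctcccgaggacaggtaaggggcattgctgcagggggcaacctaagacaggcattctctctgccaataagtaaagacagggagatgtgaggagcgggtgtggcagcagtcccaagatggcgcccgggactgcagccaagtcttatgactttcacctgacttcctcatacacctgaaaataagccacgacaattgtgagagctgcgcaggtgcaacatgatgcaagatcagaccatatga
Soft-masked bases, which mark repeats in the reference, made up 90.8% of the outer and 92.0% of the inner window, against 10.4% of the same window of *Bglap* and 25.9% of the peak. Capitals mark GCGGCA, the reverse complement of the hexanucleotide. It occurs in the outer window, where no peak was listed, and not in the inner one. Over 32851 RefSeq promoter windows of 250 bases, 2850 (8.68%) held the hexanucleotide on either strand. The cluster was chosen as holding a bound IAP element; no repeat annotation was used, and the class of the element was not checked beyond the masking.

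Expression of the 3 osteocalcin genes differed widely. *Bglap3* measured 8.66, 7.74 and 9.89 FPKM in WT and 3.06 and 1.79 FPKM in KO cells. Both KO libraries lay under all 3 WT libraries, the lowest WT value being 2.53 times the highest KO value. The means were 8.76 ± 1.08 FPKM (SD, n = 3) in WT and 2.43 ± 0.90 FPKM (SD, n = 2) in KO, 3.61-fold lower in KO, and the difference on log2(FPKM + 0.1) was -1.85. On the log2 scale the KO libraries spread more (SD 0.52) than the WT libraries (SD 0.18), and without KO replicate 1 or 2 the difference was -2.22 or -1.48. *Bglap3* was picked with this contrast in view, so that these values describe the gene and were not tested; in the table as a whole, both KO libraries were under all WT libraries for 4840 of the 14612 genes tested (33.1%), and the groups did not overlap in either direction for 63.4%. A difference as far down as that of *Bglap3* was found for 141 of those genes (0.965%), *Bglap3* included.

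*Bglap*, the main osteocalcin gene of bone, was at 0.13, 0 and 0.17 FPKM in WT and 0 and 0.08 FPKM in KO libraries. *Bglap2* was at 0.19, 0.07 and 0 FPKM in WT and 0 and 0.04 FPKM in KO libraries. The groups overlapped for both genes, and each was listed at 0 in 1 WT and 1 KO library. Every value of *Bglap3*, in KO as in WT, was above every value of the other osteocalcin genes, on a scale per transcript length.

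Depth sets what can be said of *Bglap* and *Bglap2*. The table holds no fragment counts, but for short genes with a single curated transcript of 300 to 700 bases the values fell on steps, and 78.9 to 94.1% of the low values were within 0.15 of a whole number of steps, against 30% without steps. From these, 1 fragment on 1 kb was worth 0.0170 to 0.0196 FPKM, or 0.0356 to 0.0410 FPKM on the 479 bases of *Bglap*. *Bglap* then rests on about 9.69 fragments and *Bglap2* on about 7.95 fragments over all 5 libraries. A library listed at 0 allows up to 3 fragments, which is 0.107 to 0.125 FPKM for these genes, so that a fall in KO, or a small difference in either direction, was not detectable at this depth. *Bglap3* rests on about 325 to 526 fragments per WT library and about 70.5 to 167 per KO library, depending on the model. These estimates cover counting error only.

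Reads of these genes are hard to tell apart. The coding sequences, 288 bases each, were 98.6% identical between *Bglap* and *Bglap2*, 95.5% between *Bglap* and *Bglap3* and 96.9% between *Bglap2* and *Bglap3*. The longest run shared by the transcripts was 241 bases for *Bglap* and *Bglap2*, longer than a read of 150 bp. It was 84 bases for *Bglap* and *Bglap3* and 121 bases for *Bglap2* and *Bglap3*, shorter than a read. The values of *Bglap* and *Bglap2* are therefore uncertain between them, and both would be too low if reads with several positions were dropped. How the authors treated such reads is not given in the sources used here. The fragment estimates above carry the same limit. The table gives a single value for *Bglap3* and does not separate transcripts that include the exon under the peak from those that start downstream of it.

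**Figure D2:**
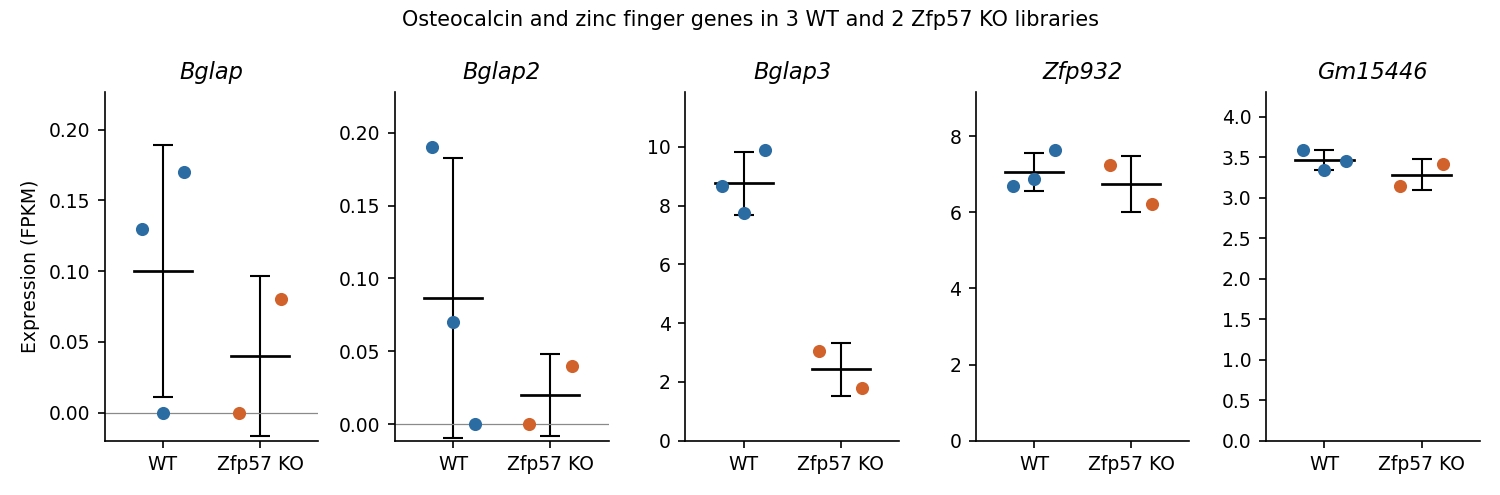
FPKM of each gene in 3 WT (blue) and 2 ZFP57 KO (orange) libraries, with the mean and SD in black and an axis of its own for every gene. *Bglap3* lies at 7.74 to 9.89 FPKM in WT and 1.79 and 3.06 FPKM in KO, *Bglap* and *Bglap2* stay under 0.20 FPKM, and the WT and KO points of *Zfp932* and *Gm15446* overlap.

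The zinc finger pair lies on chromosome 5, both on the plus strand. *Gm15446* spans 109933563 to 109941710 and *Zfp932* spans 109996502 to 110012266 in RefSeq, 54791 bp apart. Their coding parts are near copies: in the GENCODE M21 models, of 1659 coding bases for *Gm15446* and 1578 for *Zfp932*, 1553 of 1575 aligned bases (98.6%) were identical, with 87 gap bases. Runs of up to 264 bases were shared by the transcripts, longer than a read. The models of *Gm15446* differ between annotations. RefSeq has a non-coding RNA of 1551 bases in 3 exons, while GENCODE has a protein-coding gene, 109923400 to 109943936, with the zinc fingers in a last exon outside the RefSeq model. Which model the deposited FPKM rests on is not given in the sources used here, and the share of its reads that could belong to *Zfp932* depends on it. With the RefSeq model, the longest run shared with *Zfp932* was 129 bases, shorter than a read.

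Within 250 kb of the pair, 6 peaks were listed, and 5 of them held the hexanucleotide. *Gm15446* contains 2 of the 6, chr5:109933926-109934116 and chr5:109936854-109937080, and 0.264% of placed genes contain 2 or more. The one nearer its start overlaps the last 90 of the 453 bases of the first RefSeq exon, and the other lies whole in the following intron. In the GENCODE model both are intronic. Of the other KRAB zinc finger genes listed below, *Zfp600* and *Zfp180* also contain 2 peaks each. *Zfp13* and *Zfp629* contain 1 each, and the rest of that list none. *Zfp932* holds no peak, and its nearest lies 59422 bp away, in *Gm15446*; 9.34% of placed genes have a nearer one. All but the peak farthest upstream are in both lists.

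**Figure D3:**
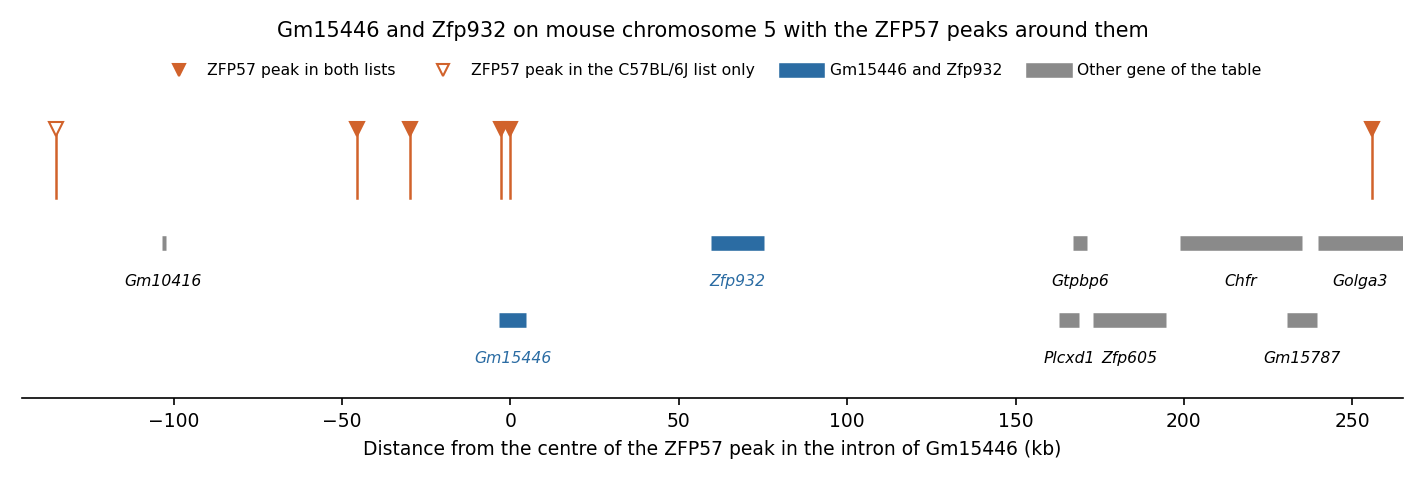
Genes of the expression table and ZFP57 peaks by distance in kb from the centre of the peak in the *Gm15446* intron; triangles are peaks, open where a peak is in the C57BL/6J list only, and bars are gene spans. Of the 6 peaks, 2 fall in *Gm15446*, 1 in *Golga3* and none in *Zfp932*.

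The peaks in *Gm15446* are alike around the hexanucleotide, where both contain the same run of 59 bases. The intronic peak is shown whole, on the plus strand, since it has this run with the most sequence beside it.
Intronic peak, chr5:109936854-109937080: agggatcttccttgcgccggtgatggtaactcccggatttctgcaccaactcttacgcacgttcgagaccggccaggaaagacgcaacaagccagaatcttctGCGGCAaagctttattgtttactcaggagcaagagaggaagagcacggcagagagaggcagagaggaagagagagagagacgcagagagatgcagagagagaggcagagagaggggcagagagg
First exon peak, its part in the intron, chr5:109934016-109934116: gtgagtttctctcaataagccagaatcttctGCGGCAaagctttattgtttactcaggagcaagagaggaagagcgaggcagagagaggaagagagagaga
To compare sites across this neighbourhood, 30 bases around the hexanucleotide of each peak follow, read so that it appears as TGCCGC (the minus strand in all 5).
Upstream, chr5:109802072-109802101: taaatggaaaagTGCCGCagaccctctggg
Upstream, chr5:109891416-109891445: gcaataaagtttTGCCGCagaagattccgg
*Gm15446* first exon peak, chr5:109934035-109934064: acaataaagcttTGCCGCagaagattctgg
*Gm15446* intronic peak, chr5:109936945-109936974: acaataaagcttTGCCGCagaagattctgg
*Golga3*, chr5:110192905-110192934: gctgtcatctgcTGCCGCaggtcatgcact
The *Gm15446* sites are identical over this window. The upstream site at 109891416 resembles them, sharing a run of 17 bases with the intronic peak, while the other peaks of the neighbourhood and the *Bglap3* peak share runs of at most 10 bases with it. The sixth peak, chr5:109906838-109907166, has no copy of these letters. The intronic peak was 86.3% soft-masked, the peak at the first exon 79.6% and the *Golga3* peak 0%.

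Expression of the zinc finger pair overlapped between WT and KO. *Gm15446* was at 3.59, 3.34 and 3.46 FPKM in WT and 3.15 and 3.42 FPKM in KO libraries, a log2 difference of -0.07. *Zfp932* was at 6.69, 6.86 and 7.63 FPKM in WT and 7.25 and 6.22 FPKM in KO libraries, also a log2 difference of -0.07. Means were 3.46 ± 0.13 against 3.29 ± 0.19 FPKM for *Gm15446* and 7.06 ± 0.50 against 6.74 ± 0.73 FPKM for *Zfp932* (SD, n = 3 and 2). *Zfp932*, with no peak, was above *Gm15446*, with 2 peaks, in every library. Among the 14612 genes, 16.5% had a smaller difference in size than *Zfp932* and 17.7% a smaller one than *Gm15446*, and the median over all of them was -0.01. If the values rest on models like those of GENCODE, reads may be shared by the pair and the values are then not fully separate measurements.

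Other genes near the osteocalcin cluster were tested, since they were not used to choose it. Of 24 genes of the table within 250 kb, 21 had enough expression to test and 8 (38.1%) were called, 6 higher and 2 lower in KO, against 41.1% of all genes tested. Their median log2 difference was 0.03. *Paqr6*, a progestin receptor family gene that lies 75 bp from *Bglap3* and 1582 bp from the peak, was at 0.12, 0.05 and 0.04 FPKM in WT and 0.06 and 0.12 FPKM in KO libraries, under the filter.

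The nearest tested genes on the 2 sides differed little. *Smg5*, a factor of nonsense-mediated RNA decay 6278 bp away, was at 19.5, 20.9 and 20.01 FPKM in WT and 23.0 and 22.2 FPKM in KO, a log2 difference of 0.17 (SE 0.05, adjusted p = 0.030 by limma) that was lost in 7 of 12 alternative fits. *Pmf1*, a kinetochore gene 9672 bp away, was at 18.1, 18.4 and 18.04 FPKM in WT and 19.9 and 18.6 FPKM in KO (adjusted p = 0.20 by limma). Farther out, *Tsacc*, a co-chaperone of a testis kinase, fell from 5.18 ± 0.29 FPKM (SD, n = 3) to 2.76 ± 0.14 FPKM (SD, n = 2), with a log2 difference of -0.88 (SE 0.08, adjusted p = 0.000701 by limma). *Lmna*, which encodes lamins A and C, rose by 0.71 on the log2 scale (adjusted p = 0.0092 by limma), a call lost in 1 of 12 alternative fits. *Mex3a*, which encodes an RNA-binding protein, rose by 0.55 (adjusted p = 0.0010 by limma). *Rhbg*, an ammonium transporter gene at a low level, had a log2 difference of 0.92 (adjusted p = 0.030 by limma), a call lost in 5 of 11 alternative fits. None of these neighbours holds a peak.

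Near the zinc finger pair, all 9 neighbours within 250 kb were tested and 5 (55.6%) were called, 1 higher and 4 lower in KO, against 41.1% of all genes tested, with a median log2 difference of -0.15. With single libraries left out, between 2 and 4 of them were called. With a block for replicate number, 1 of the 9 was called, where 3012 of all 14612 genes tested were called. The nearest tested genes are *Plcxd1*, a phospholipase-domain gene 87703 bp away, and *Gtpbp6*, a GTPase gene of mitochondria 91710 bp away. *Plcxd1* was at 0.33, 0.36 and 0.35 FPKM in WT and 0.15 and 0.10 FPKM in KO libraries. Its log2 difference was -0.998 (SE 0.19, adjusted p = 0.0086 by limma), a call lost in 1 of 11 alternative fits. *Gtpbp6* was at 3.92, 3.89 and 3.64 FPKM in WT and 4.65 and 4.44 FPKM in KO, a log2 difference of 0.25 (adjusted p = 0.033 by limma), a call lost in 7 of 12 alternative fits. *Golga3*, a golgin gene, is the only tested neighbour with a peak inside, which overlaps an exon. It fell from 10.1 ± 0.30 FPKM (SD, n = 3) to 7.24 ± 0.20 FPKM (SD, n = 2), with a log2 difference of -0.47 (SE 0.05, adjusted p = 0.0013 by limma), and was called in all 12 alternative fits. *Ankle2*, a gene of nuclear envelope assembly, fell by 0.53 on the log2 scale (adjusted p = 0.0097 by limma), a call lost in 2 of 12 alternative fits. *Zfp605*, another zinc finger gene there, was at 3.02, 3.31 and 3.22 FPKM in WT and 3.11 and 3.67 FPKM in KO (adjusted p = 0.52 by limma).

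**Figure D4:**
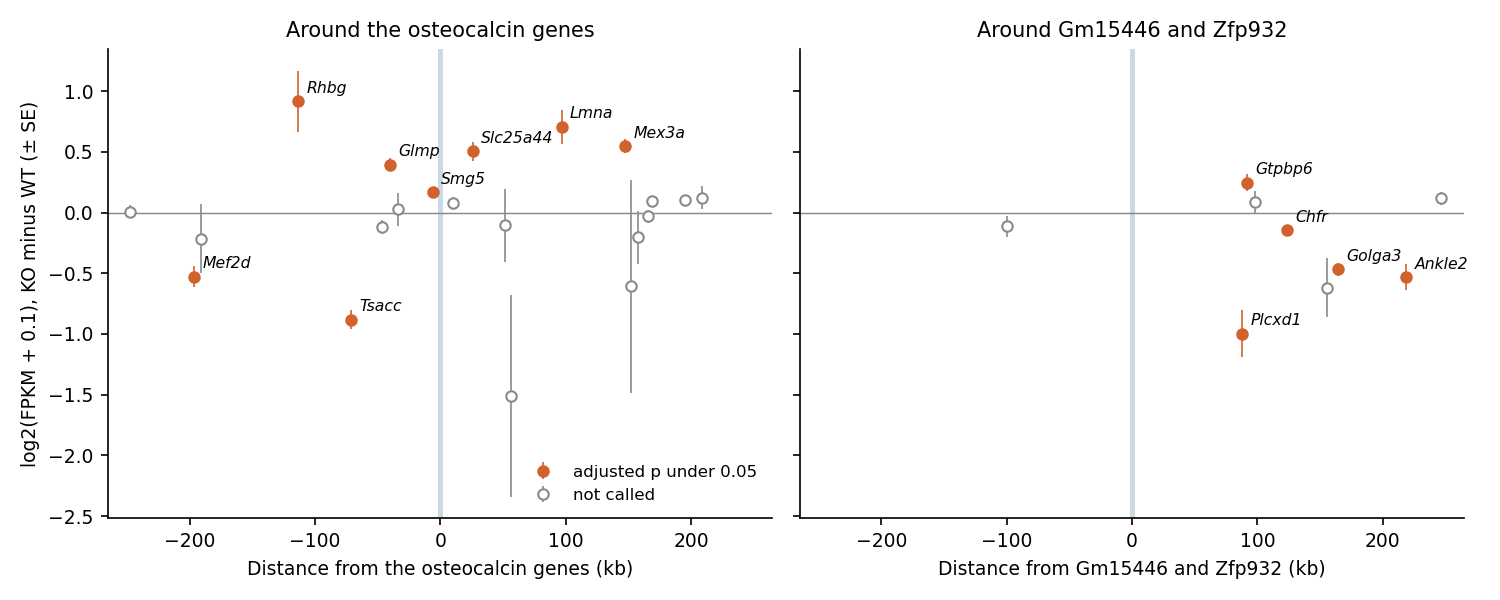
Difference of log2(FPKM + 0.1), KO minus WT, with its SE, for each tested neighbour by distance in kb from the osteocalcin genes (left) and from *Gm15446* and *Zfp932* (right); filled points were called. Of the neighbours, 8 of 21 on the left and 5 of 9 on the right were called, and the called genes differ from -0.998 (*Plcxd1*) to 0.92 (*Rhbg*).

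A list of 20 bone genes, the regulators and matrix genes known beside osteocalcin in osteoblasts, was largely silent, with 13 under 0.1 FPKM on average. Of the 7 tested, 4 (57.1%) were called, all higher in KO, against 41.1% of all genes tested (18.8% higher), and the median log2 difference was 0.46. *Bmp4*, a growth factor of the bone morphogenetic protein family, was at 0.15, 0.12 and 0.08 FPKM in WT and 0.73 and 0.82 FPKM in KO libraries, a log2 difference of 2.02 (SE 0.21, adjusted p = 0.0011 by limma). *Atf4*, a stress-response factor known to act on the osteocalcin promoter in osteoblasts, was at 90.2 to 91.7 FPKM in WT and 130.8 and 157.6 FPKM in KO (log2 difference 0.66, adjusted p = 0.0015 by limma). *Spp1*, which encodes osteopontin, rose by 0.46 on the log2 scale (adjusted p = 0.000541 by limma). These genes have roles outside bone. *Runx2* and *Sp7*, the defining factors of osteoblasts, did not exceed 0.01 and 0.08 FPKM in any library. *Bglap3*, in contrast, had lower values in KO, and whether these differences are related was not tested.

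Genes of Gla protein synthesis and of other Gla proteins were counted next, in a list that also holds *Gprc6a*, *Gpr158* and *Gpr37*, receptor genes studied in connection with osteocalcin and all under the filter here. Of 20, 12 were tested and 5 (41.7%) were called, 2 higher and 3 lower, close to the 41.1% of all genes tested, with a median of 0.04. *Ggcx*, the gamma-carboxylase gene, was at 2.49, 2.52 and 2.63 FPKM in WT and 3.21 and 3.03 FPKM in KO (log2 difference 0.28, adjusted p = 0.031 by limma), a call lost in 6 of 12 alternative fits, among them each that leaves out a library. *Pros1*, which encodes the anticoagulant protein S, rose by 1.35 on the log2 scale (adjusted p = 0.0013 by limma) and holds a ZFP57 peak. *Proc*, which encodes protein C, fell by 1.15 (adjusted p = 0.0040 by limma), and *Prrg1*, which encodes a membrane Gla protein, fell by 1.46 (adjusted p = 0.0063 by limma). *Vkorc1l1*, a vitamin K epoxide reductase gene, fell by 0.29 (adjusted p = 0.013 by limma), a call lost in 2 of 12 alternative fits. *Mgp*, the matrix Gla protein gene, was at 0 in every library, as were *F9* and *F10*.

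Of 11 other KRAB zinc finger genes on the list, all were tested and 2 (18.2%) were called, both lower, against 41.1% of all genes tested, with a median of -0.09. *Zfp809*, whose protein silences murine leukemia virus, was at 18.8, 20.5 and 20.9 FPKM in WT and 15.9 and 13.0 FPKM in KO libraries. Its log2 difference was -0.48 (SE 0.09, adjusted p = 0.0095 by limma), a call lost in 1 of 12 alternative fits. *Zfp961* fell by 0.42 on the log2 scale (adjusted p = 0.016 by limma), a call lost without WT replicate 2. Without 1 library at a time, between 1 and 4 of the 11 were called, and without KO replicate 1 the count was 4, without WT replicate 2 it was 1. *Zfp445*, which acts with ZFP57 on imprints, was at 15.4, 14.9 and 15.9 FPKM in WT and 15.7 and 15.2 FPKM in KO. The genes of this list that hold ZFP57 peaks, *Zfp600*, *Zfp180*, *Zfp13* and *Zfp629*, were not called.

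The co-repressor genes through which KRAB zinc finger proteins act were well expressed. All 22 were tested and 14 (63.6%) were called, 6 higher and 8 lower, against 41.1% of all genes tested, with a median of -0.11. The count was 9 with limma without trend, which called 5331 of all 14612 genes tested. With a block for replicate number it was 4, where 3012 of all genes were called. *Dnmt3a*, a de novo DNA methyltransferase, was at 10.4, 9.21 and 11.0 FPKM in WT and 3.25 and 2.84 FPKM in KO, a log2 difference of -1.71 (SE 0.10, adjusted p = 0.000327 by limma), and was the only gene of the list past 1 in size. The heterochromatin protein 1 genes differed in direction. *Cbx1* fell by 0.59 on the log2 scale (adjusted p = 0.00054 by limma), while *Cbx5* and *Cbx3* rose by 0.47 and 0.37 (adjusted p = 0.0012 and 0.0011 by limma). *Trim28*, which encodes KAP1, was at 155.4 to 159.6 FPKM in WT and 142.4 and 140.2 FPKM in KO. Its log2 difference was -0.16 (adjusted p = 0.014 by limma, lost in 4 of 12 alternative fits). *Setdb1*, its H3K9 methyltransferase partner, was at 20.2 to 21.6 FPKM in WT and 20.9 and 20.7 FPKM in KO (adjusted p = 0.82 by limma). *Setdb1* holds a ZFP57 peak and was not called.

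**Figure D5:**
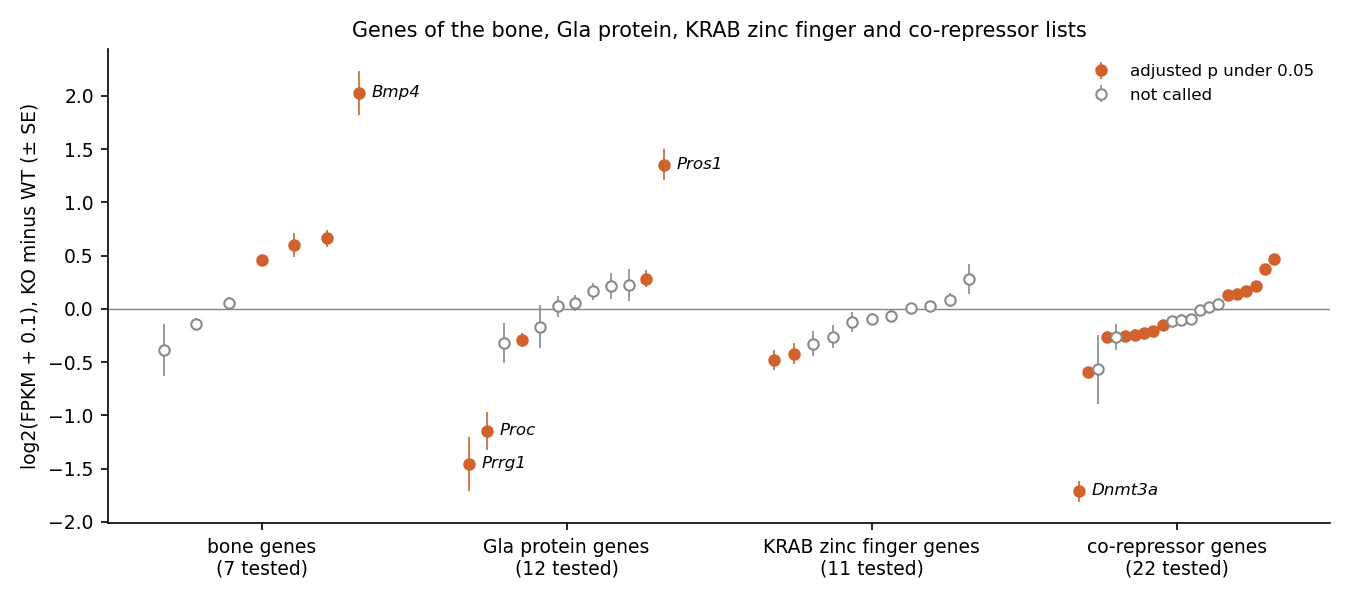
Difference of log2(FPKM + 0.1), KO minus WT, with its SE, for the tested genes of 4 lists, ordered within each list; filled points were called. The counts called are 4 of 7, 5 of 12, 2 of 11 and 14 of 22 from left to right, and only *Bmp4*, *Pros1*, *Proc*, *Prrg1* and *Dnmt3a* lie beyond 1 in size.

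The genes whose levels ran most like each member over the 5 libraries were named as a description. Pearson's r on log2(FPKM + 0.1) was computed against the 10663 other genes averaging at least 1 FPKM. With 5 libraries and so many genes, some r close to 1 arise by selection alone, and none was tested. *Bglap3* was picked on the WT and KO contrast, so that a high r with it in part restates a lower level in KO. Its r was at least 0.95 for 1497 genes (14.0%). The closest were *Ptprs*, *Morc3* and *Arhgdia* (r = 0.9999, 0.9997 and 0.9997), on chromosomes 17, 16 and 11. For *Zfp932* it was at least 0.95 for 38 genes, led by *Haus6* (0.997), *Cstf1* (0.988) and *Pola2* (0.987). For *Gm15446* there were 55 such genes, led by *Ppp1r12a* (0.996), *Myo18a* (0.995) and *Abca3* (0.993). None of these 9 genes has a peak within 20 kb, against 4.25% of all placed genes, a share at which few or none of 9 would have one.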

How the data were processed

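RNA-seq FPKM of 3 WT and 2 ZFP57 KO ES cell libraries and ZFP57 peak positions were used. The authors deposited FPKM for 24409 genes, rounded to 2 decimals, from paired reads of 150 bp of total RNA depleted of ribosomal RNA, aligned to mm10; the counting and annotation are not given in the sources used here. The authors deposited peaks called in at least 2 of 3 WT replicates from uniquely aligned reads of 100 bp, with no score, read count or replicate. All 743 intervals of the list named for the hybrid lines are among the 1423 peaks of the C57BL/6J list, and how that list was made is not given. The submitters' processing notes name FastQC 0.11.5, Trim Galore 0.2.7, BWA 0.6.2, Picard, MACS2 2.1.0 and STAR 2.5.2, without a role.

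For the 14612 genes averaging at least 0.1 FPKM, limma 3.58.1 (eBayes with trend, R 4.3.3) was run on log2(FPKM + 0.1), with Benjamini-Hochberg adjustment and calls under 0.05. The added 0.1 makes changes of low genes look smaller. This step was tested on simulated data. Of the table's genes, 23167 were placed by symbol, 1096 by a synonym and 146 were not placed (RefSeq, GRCm38.p6). Neighbours are genes within 250 kb. Sequences are RefSeq's; promoter windows matched *Bglap*, *Bglap3*, *Zfp932* and *Gm15446*. Alignments used Biopython 1.88. Alternatives were other pseudocounts (1 and 0.01), filters, scaling, variance trend, replicate block, a size threshold, windows and each library left out.

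The genes described and the lists were chosen with earlier results of these data known, and the 5 genes with the WT and KO contrast in view, so that their own differences were not tested. Outside them, the genes named are *Zfp57*, in each neighbourhood and list the up to 4 called genes with the largest difference, the 2 nearest tested neighbours and the 3 genes with the most similar pattern. *Paqr6*, *Zfp605*, *Runx2*, *Sp7*, *Ggcx*, *Mgp*, *F9*, *F10*, *Gprc6a*, *Gpr158*, *Gpr37*, *Zfp445*, *Zfp600*, *Zfp180*, *Zfp13*, *Zfp629*, *Trim28* and *Setdb1* were named for their role or position after their values were seen. So were the genes with an exon under a peak in the closing section. The marker genes come from the marker lists. The KAP1 and H3K9me3 libraries, and where the proteins of *Zfp932* and *Gm15446* bind, were not analysed here. One gene that this rule names is not reported here.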

Additional observations from a re-analysis of the deposited data

How the results depend on the processing

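Of the 138 comparisons of a result with an alternative, 108 left the count within 1.5 times, or the log2 difference of a gene within 1 SD. Correlations of the same-numbered WT and KO deviations from the group means were -0.07 and -0.04. With 2 KO libraries, the KO deviations of a gene mirror each other. These values therefore cannot show whether the replicate numbers in the titles pair the samples. With the replicate block, 3012 genes were called instead of 6002, with 5 of the chromosome 3 and 1 of the chromosome 5 neighbours, 3 Gla protein, 1 KRAB zinc finger and 4 co-repressor genes; the bone count stayed within 1.5 times. Among the named genes, the block ended the calls of *Smg5*, *Rhbg*, *Lmna*, *Plcxd1*, *Gtpbp6*, *Ankle2*, *Ggcx*, *Vkorc1l1*, *Zfp809* and *Trim28*. With a log2 difference of at least 1 in size, 1172 genes were called, with 0 neighbours on chromosome 3, 0 on chromosome 5, 1 bone, 3 Gla protein, 0 KRAB zinc finger and 1 co-repressor gene; by limma without the size, 10, 6 and 4 genes of the groups with 0 had an unadjusted p under 0.05. A mean of at least 1 FPKM left 3 Gla protein genes of 8 tested, with 4890 of all 10664 genes called, and limma without trend left 9 of 22 co-repressor genes, with 5331 of 14612. Windows of 100 and 500 kb gave 5 of 10 and 15 of 36 called neighbours on chromosome 3, and 2 of 4 and 9 of 16 on chromosome 5. Without single libraries, the counts ranged from 4146 to 4831 for all genes, 6 to 9 and 2 to 4 for the chromosome 3 and 5 neighbours, 4 to 5 for bone, 3 to 4 for Gla protein, 1 to 4 for KRAB zinc finger and 10 to 11 for co-repressor genes. The chromosome 5 count was 3 without WT replicate 2, WT replicate 3 or KO replicate 1, and 2 without KO replicate 2, and the Gla protein count 3 without KO replicate 2.

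The log2 difference of *Bglap3* ranged from -2.22 to -1.48 without single libraries, that of *Zfp932* from -0.18 to 0.04, of *Gm15446* from -0.13 to -0.02, of *Bglap* from -0.89 to -0.03 and of *Bglap2* from -0.91 to -0.14. With a pseudocount of 0.01, that of *Bglap2* was -1.28 instead of -0.52, which rests on a handful of fragments. Of the 5 genes, 4 had a peak within 20 kb and within 50 kb, 4 with the peaks of the hybrid list alone, and 2 had a peak that overlaps their span. Where the alternative is not itself a change in genes, samples or threshold, the cause was not tested. The exact depth of the libraries is not known, and the peak lists give no signal, so that binding could not be compared between WT replicates.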

Other observations

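Besides *Bglap3*, 27 genes of the table had a whole curated exon inside a ZFP57 peak, and 24 of them were tested. This group was formed after the *Bglap3* exon had been seen, and its counts are a description. Of the 24, 8 were called higher and 5 lower in KO by limma, 54.2% in all, against 41.1% of all genes tested. Among the 8 were *Fkbp6*, *Mest*, *Plagl1*, *Agrn*, *Snrpn* and *Snurf*, of which the last pair share exons, with log2 differences of 0.81, 0.78, 0.75, 0.59, 0.56 and 0.55. *Nnat* was not called (log2 difference -0.11, adjusted p = 0.63 by limma), and *Cdh15* was under the filter. The group holds imprinted genes. The authors name *Fkbp6* and *Snrpn* among imprinted loci and *Cdh15* as imprinted in some tissues, and report imprinted genes among those altered in KO. Imprinted genes were not counted apart from the others here. Among the 5 lower genes were *Shank3*, which encodes a synaptic scaffold, at -0.72, and *Mier3* at -0.46. Over the wider group of 77 tested genes with an exon overlapped by a peak, 20 were called higher and 14 lower, 44.2%.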
